A study of Homo sapiens with 6 samples.

Results

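The AP-1 genes examined here are FOS, FOSB, FOSL1, FOSL2, JUN, JUNB, JUND, MAFF, MAFK and BATF3. They were found by matching the Ensembl identifiers of the deposited tables to these symbols, and all 10 were found, each on 1 row, among 39168 identifiers. They were followed in CAL62, an established human cell line of anaplastic thyroid carcinoma (ATC), an aggressive undifferentiated thyroid cancer. The labels give its genotype as WT. RNA sequencing compared 3 libraries of cells given 50 nM erianin, the compound under study, with 3 libraries of cells given DMSO, the solvent, at an equal concentration, and all 6 were taken after 48 h. Both groups grew in the same medium, an RPMI medium with serum and antibiotics, so the single cell line, dose and time point bound what the comparison covers.

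AP-1 is a transcription factor made of pairs of basic leucine zipper (bZIP) proteins. JUN proteins can pair with themselves or with FOS proteins, whereas FOS proteins need a JUN partner, and the pair binds DNA elements known as TRE and CRE sites. FOS, FOSB, JUN and JUNB are early response genes that growth factor and stress kinases switch on within minutes, FOSL1 is maintained by ERK signaling in many RAS-driven and BRAF-driven cancers, and the small MAF proteins MAFF and MAFK lack an activation domain of their own and pair with bZIP proteins such as NRF2 and BACH1. BATF3 is a small bZIP protein that pairs with JUN proteins.

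The libraries held between 25776301 and 34107727 reads on named genes. DMSO replicate 3 stood apart from the other DMSO libraries: the chi-square statistic per gene against them was 90.7 and 104, against 4.35 between DMSO replicates 1 and 2 and 3.8 to 4.8 among the erianin libraries. Results are therefore also given without it. Among 7 thyroid lineage markers only PAX8 and FOXE1 reached a mean of 1 TPM (a transcript level scaled by gene length and library total), TSHR and NKX2-1 were listed at 0 in every library, and TG and SLC5A5 were near 0. The keratin genes KRT8, KRT18 and KRT19 were present. Of the other epithelial markers, EPCAM had a mean of 19.1 TPM, and CDH1 was near 0 at a mean of 0.0246 TPM. Of 6 fibroblast genes, COL1A1 and COL1A2 had means of 13.1 and 4.83 TPM, and 4 lay under 1 TPM. The summed level of 6 immune and endothelial markers stayed between 0.201 and 0.522 TPM. In bulk RNA, fewer cells of a type and less RNA per cell cannot be told apart.

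FOSB was the only AP-1 gene called differentially expressed with erianin, at 1.54-fold the DMSO level, and FOSL2 passed the adjusted p but not the fold threshold. The other 8 genes passed neither, and the most abundant member, FOSL1, had the only negative change. A gene was called at an adjusted p under 0.05 (edgeR's quasi-likelihood test, Benjamini-Hochberg adjustment over 12821 genes) and an absolute log2 fold change over 0.5. All 10 genes passed the filter on low counts. By this rule 1 of 10 was called higher and 0 lower, against 5.37% of all tested genes higher and 3.36% lower. At an unadjusted p under 0.05, edgeR put 4 of the 10 higher and 0 lower, against 15.3% and 15.6% of all tested genes, and DESeq2 and limma also called 0 lower. By the adjusted p alone 2 of 10 passed, FOSB and FOSL2, against 14.9% of all tested genes in either direction. The log2 fold changes of the 10 had a median of 0.22, with 9 positive and 1 negative, beside a median of 0.0014 over all genes tested.

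Within the FOS genes, FOSB (ENSG00000125740, chr19:45467995-45475179 on GRCh38, plus strand) encodes a FOS protein whose truncated splice form is long-lived. Its normalized counts, in CPM (reads of the gene scaled to the library total), were 36.5, 37.0 and 40.4 in the DMSO libraries and 56.0, 63.3 and 56.4 in the erianin libraries, each in the order of replicates 1, 2 and 3. For FOSB every erianin library lay above every DMSO library, and DMSO replicate 3 was the highest of its group. The means were 38.0 ± 2.11 and 58.6 ± 4.13 CPM (SD, n = 3 each), and the log2 fold change was 0.63 (SE 0.09, 95% interval 0.42 to 0.84, adjusted p = 0.00664). That interval reaches under the fold threshold of 0.5. The reads behind these values numbered between 890 and 2214 per library. The call was lost without erianin replicate 2, the highest FOSB library, where the log2 fold change was 0.57 and the edgeR adjusted p 0.0507. Without erianin replicate 1 or 3 the call narrowly held, with edgeR adjusted p-values of 0.0445 and 0.0475. Over all genes, those called higher fell from 688 to 184, 172 and 183 without erianin replicates 1, 2 and 3 in turn. FOSB overlaps ERCC1, a DNA repair gene on the opposite strand, with 0 exonic bases in common, and whether the counting used strand is not given in the sources used here. ERCC1 moved the other way, from a mean of 173 CPM to 119 CPM (log2 fold change -0.54, adjusted p = 0.0125).

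FOSL2 (ENSG00000075426, chr2:28392448-28417312, plus strand) encodes FRA-2, a FOS protein that like FRA-1 lacks the strong activation domain of FOS. It had 61.6, 57.3 and 63.5 CPM in the DMSO libraries and 81.8, 83.7 and 81.8 CPM in the erianin libraries. The groups did not overlap, and the erianin libraries were close to each other. The means were 60.8 ± 3.2 and 82.5 ± 1.12 CPM (SD, n = 3 each), which gave a log2 fold change of 0.44 (SE 0.07, 95% interval 0.27 to 0.61, adjusted p = 0.0112). This change is under the fold threshold of 0.5, although its interval reaches past it. With the replicate number as a block the FOSL2 change was again 0.44, with an adjusted p of 0.0535. Without erianin replicates 1, 2 and 3 in turn it was 0.44, 0.43 and 0.44, with adjusted p-values of 0.0714, 0.0729 and 0.0721, so the size held while the adjusted p no longer passed.

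FOS (ENSG00000170345, chr14:75278774-75282230, plus strand) encodes the founding FOS protein, a classic immediate early gene product. Its level was 137, 131 and 155 CPM with DMSO and 159, 155 and 163 CPM with erianin. The lowest erianin library was level with DMSO replicate 3, so the groups were not apart. FOS had a log2 fold change of 0.17 (SE 0.08, 95% interval -0.02 to 0.36, adjusted p = 0.2). Without DMSO replicate 3 it was 0.24 with an edgeR adjusted p of 2.52e-05. In that fit edgeR's biological coefficient of variation was 0.0421, against 0.139 with all libraries. There 27.5% of all tested genes passed the adjusted p as higher. The same limit applies to the values without DMSO replicate 3 given for the genes below.

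FOSL1 (ENSG00000175592, chr11:65892049-65900573, minus strand) encodes FRA-1, a FOS protein tied to invasion in carcinoma cells. It had 1246, 1130 and 1599 CPM in the DMSO libraries and 1171, 1126 and 1133 CPM in the erianin libraries. DMSO replicate 3 was far above every other library, DMSO replicate 1 was also above the erianin libraries, and DMSO replicate 2 lay among them. The log2 fold change was -0.21 (SE 0.13, 95% interval -0.51 to 0.08, adjusted p = 0.303), and -0.06 without DMSO replicate 3 (adjusted p = 0.24). The sign of the FOSL1 change was positive in other settings. With a GC offset and without DMSO replicate 3 the FOSL1 change was 0.17 (95% interval 0.08 to 0.25, edgeR adjusted p = 0.00144), which passed the adjusted p as higher. On log2(TPM + 1), a scale on which the median over all genes was 0.18, it was 0.0014.

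**Figure D1:**
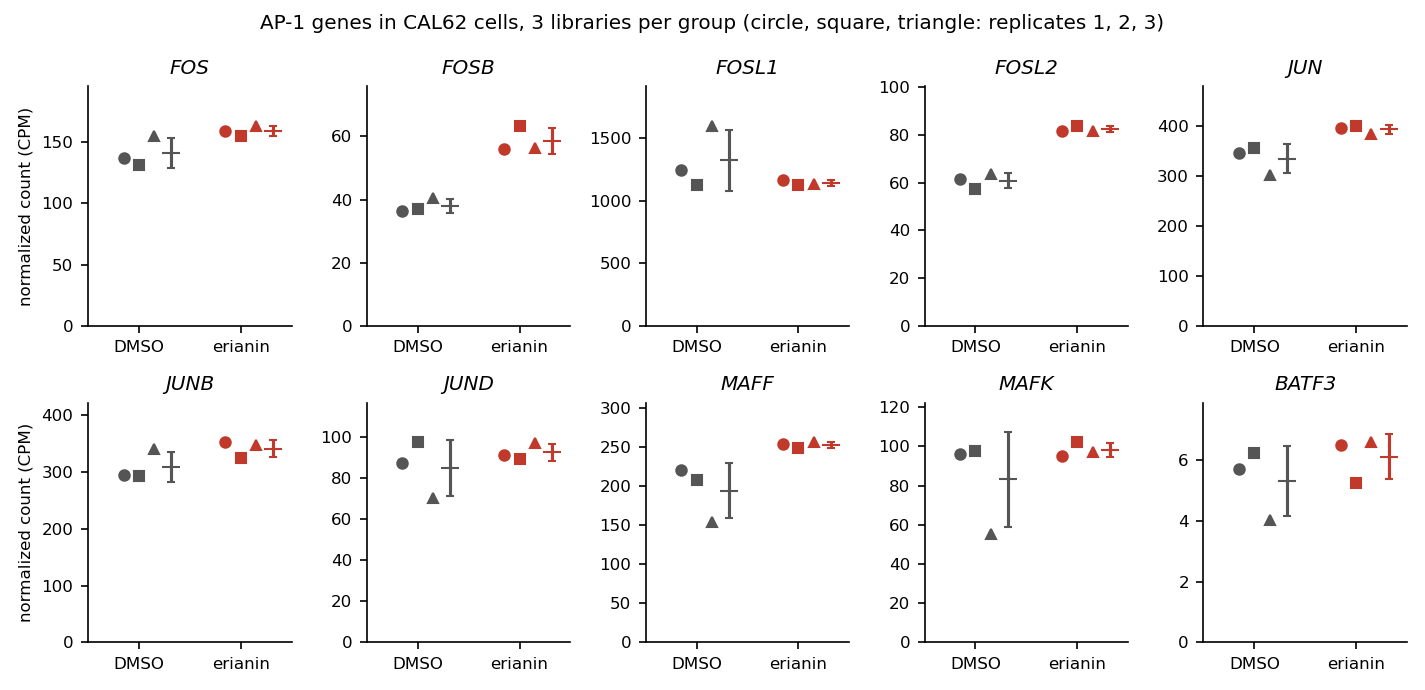
Normalized counts (CPM, linear axes from 0) of the 10 AP-1 genes in 3 DMSO libraries (grey) and 3 erianin libraries (red). Circles, squares and triangles are replicates 1, 2 and 3, and the bar beside each group is its mean ± SD; the groups are apart for FOSB, FOSL2, JUN and MAFF, and the DMSO triangle is the highest library for FOSL1 and the lowest for MAFK.

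Among the JUN genes, JUN (ENSG00000177606, chr1:58780788-58784327, minus strand) encodes c-JUN, the main target of the JNK kinases and the strongest activator of the family. It had 346, 357 and 303 CPM with DMSO and 396, 401 and 385 CPM with erianin. All erianin libraries lay above all DMSO libraries, with DMSO replicate 3 the lowest. JUN had an estimate of 0.23 on the log2 scale (SE 0.08, 95% interval 0.04 to 0.42, adjusted p = 0.0976). Without DMSO replicate 3 the change was smaller, 0.16, and the adjusted p was 0.00117.

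JUNB (ENSG00000171223, chr19:12791496-12793315, plus strand) encodes a weaker activator that can restrain c-JUN. Its level was 294, 293 and 340 CPM with DMSO and 352, 324 and 348 CPM with erianin. Erianin replicate 2 lay below DMSO replicate 3, so the groups overlapped. The log2 fold change was 0.14 (SE 0.08, 95% interval -0.05 to 0.34, adjusted p = 0.29), and 0.21 without DMSO replicate 3 (adjusted p = 6.55e-05). JUNB shares 259 exonic bases, 14.2% of its own, with HOOK2 on the opposite strand, and HOOK2 held at most 792 reads per library against at least 7164 for JUNB. Since the strand setting of the counting is not given, these totals do not measure what the overlap did to the JUNB counts.

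JUND (ENSG00000130522, chr19:18279760-18281622, minus strand) encodes the JUN protein that resting cells make most steadily. It had 87.5, 97.5 and 70.4 CPM with DMSO and 91.3, 89.4 and 97.4 CPM with erianin. The erianin libraries lay between the lowest and the highest DMSO library. The log2 fold change was 0.12 (SE 0.12, 95% interval -0.16 to 0.41, adjusted p = 0.544), and -0.004 without DMSO replicate 3, with an interval of -0.11 to 0.10.

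MAFF (ENSG00000185022, chr22:38200767-38216511, plus strand), a small MAF gene that responds to stress and cytokines, had 221, 208 and 154 CPM with DMSO and 254, 249 and 256 CPM with erianin. The groups did not overlap, and DMSO replicate 3 was the lowest library. MAFF had a log2 fold change of 0.38 (SE 0.13, 95% interval 0.08 to 0.69, adjusted p = 0.0919), and without DMSO replicate 3 it was 0.24 (adjusted p = 1.57e-05).

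MAFK (ENSG00000198517, chr7:1530714-1543043, plus strand), a partner through which NRF2 and BACH1 bind antioxidant response elements, had 96.2, 97.9 and 55.3 CPM with DMSO and 95.1, 102 and 97.0 CPM with erianin. DMSO replicates 1 and 2 lay among the erianin libraries and only DMSO replicate 3 was lower. MAFK had a log2 fold change of 0.24 (SE 0.20, 95% interval -0.23 to 0.71, adjusted p = 0.47), and 0.01 without that library, with an interval of -0.09 to 0.11. MAFK shares 809 exonic bases, 18.1% of its own, with TMEM184A on the opposite strand, which held at most 336 reads per library. With the strand setting not given, that total does not measure what the overlap did to the MAFK counts.

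BATF3 (ENSG00000123685, chr1:212686418-212699985, minus strand), best known for its role in dendritic cells, was the member with the fewest reads, from 126 to 231 per library. It had 5.71, 6.25 and 4.04 CPM with DMSO and 6.5, 5.26 and 6.59 CPM with erianin. The groups overlapped widely, and a log2 fold change of 0.20 came with a 95% interval of -0.25 to 0.65 (adjusted p = 0.533). Without DMSO replicate 3, the lowest BATF3 library, it was 0.02, with an interval of -0.26 to 0.31.

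The CPM of 4 members, FOSB, FOSL2, JUN and MAFF, did not overlap between groups and were higher with erianin, against 19.5% of all tested genes. The DMSO library that stood apart touched most members: replicate 3 was the highest of the DMSO libraries for FOS, FOSB, FOSL1, FOSL2 and JUNB and the lowest for JUN, JUND, MAFF, MAFK and BATF3. Its difference from the mean of DMSO replicates 1 and 2 ran from -0.81 for MAFK to 0.43 for FOSL1 on the log2 CPM scale. Without it, 6 members (FOS, FOSB, FOSL2, JUN, JUNB and MAFF) were higher by the adjusted p alone, against 27.5% of all genes then tested. With the fold threshold the call was again FOSB alone, and 0 members were called lower, against 11.4% of genes called higher and 6.11% called lower.

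The GC content of the members' longest transcripts ran from 45.6% for BATF3 to 69.7% for JUND. With each library's trend on GC content removed as an offset, the log2 fold changes were 0.73 for FOSB, 0.53 for FOSL2, 0.52 for MAFF, 0.34 for JUN and 0.28 for JUND, and these 5 passed the adjusted p, against 9.71% of all tested genes that did so in this direction. FOSB, FOSL2 and MAFF then passed the fold threshold too, against 6.34% of all tested genes called higher in this fit. The part of GC content in the DMSO replicate 3 values was not tested.

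**Figure D2:**
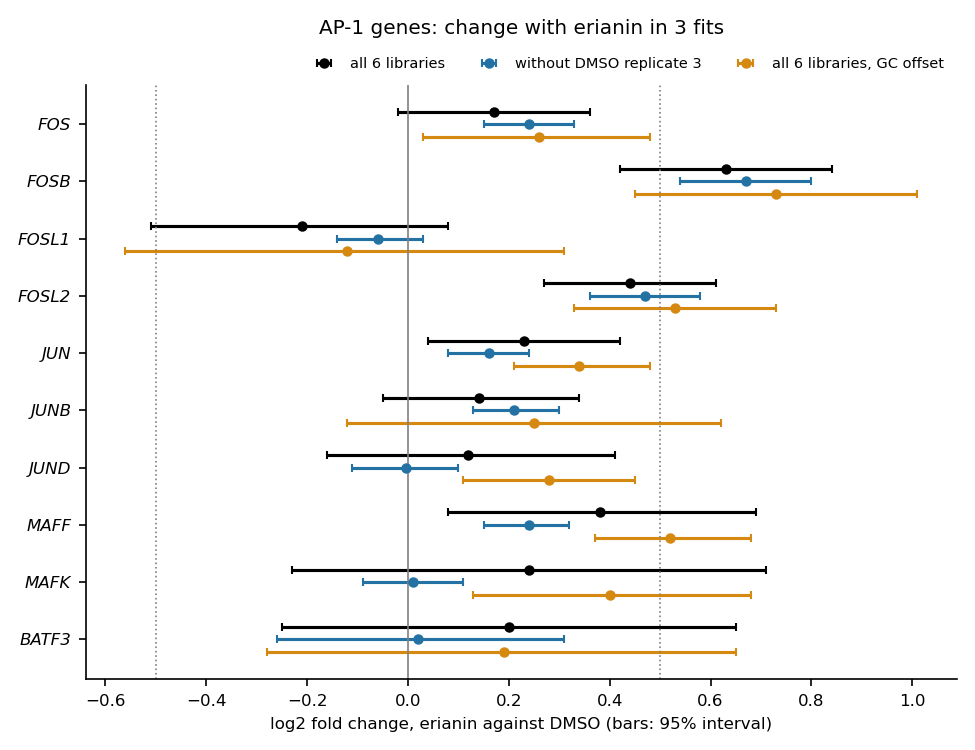
Log2 fold change of each AP-1 gene, erianin against DMSO, with 95% intervals, from all 6 libraries (black), without DMSO replicate 3 (blue) and with a GC offset (orange). Dotted lines mark the fold threshold of 0.5 in each direction. The FOSB estimate lies past it in all 3 fits, but its interval reaches under it with all 6 libraries and with the GC offset. The FOSL2 and MAFF estimates lie past it only with the GC offset.

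**Figure D3:**
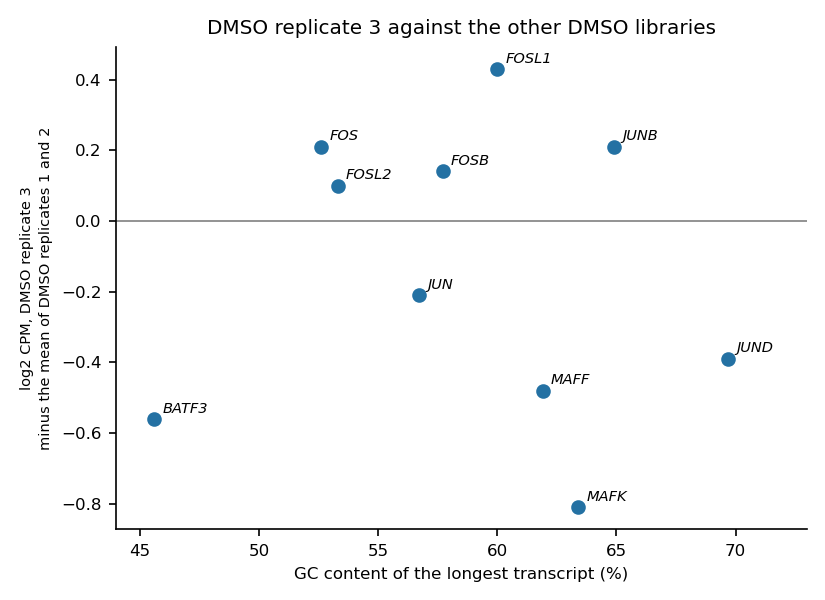
Difference of DMSO replicate 3 from the mean of DMSO replicates 1 and 2 in log2 CPM (vertical axis) against the GC content of the longest transcript in percent (horizontal axis), 1 point per AP-1 gene. FOS, FOSB, FOSL1, FOSL2 and JUNB lie above 0 and the other 5 genes below, from 0.43 for FOSL1 to -0.81 for MAFK.

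Levels of different genes were set side by side in TPM. FOSL1 had the highest mean over the 6 libraries, 1287 TPM, at percentile 99.5 of the tested genes, followed by JUNB at 1131 and JUN at 655 TPM. FOSL1 was above JUNB in 5 of 6 libraries, so these neighbours did not keep their order throughout. JUND had a mean of 239 TPM, FOS 94.9, MAFF 87.2, MAFK 85.4 and FOSL2 33.1 TPM. MAFF was above MAFK in only 4 of 6 libraries. FOSB, the called gene, was near the bottom at 9.35 TPM, percentile 44.6, and above BATF3 at 9.26 TPM in 4 of 6 libraries. All other neighbours kept their order in 6 of 6. FOSB stayed between 6.67 and 6.80 TPM with DMSO and between 11.4 and 12.8 TPM with erianin, far under FOSL1 in both groups. The deposited TPM columns summed to 59.1% to 73.5% of their nominal total with DMSO and 75.1% to 78.3% with erianin. The TPM values are therefore not read as a measure of the change between groups.

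The make-up of the FOS family was compared as each gene's share of the family's summed TPM within a library, a quantity that library scaling leaves unchanged. FOSL1 took 91.5%, 91.1% and 92.6% in the DMSO libraries and 89.2%, 88.9% and 88.8% in the erianin libraries. Its share was lower in every erianin library, by 2.77 percentage points on average (91.7% ± 0.769 against 89.0% ± 0.254, SD, n = 3 each, exact two-sided permutation p = 0.1). FOS took 5.38% to 6.34% with DMSO and 7.27% to 7.66% with erianin. FOSL2 took 1.60% to 2.01% and 2.71% to 2.88%, and FOSB 0.425% to 0.542% and 0.776% to 0.909%. These groups did not overlap either, and each of the 4 differences had an exact permutation p of 0.1, the smallest that 3 libraries against 3 can give, so the design cannot reach 0.05. Since shares sum to 100%, the 4 differences are not independent of each other.

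In the JUN family the shares overlapped between groups. JUNB took 56.5% ± 4.67 with DMSO and 55.5% ± 1.17 with erianin, JUN 31.5% ± 2.77 and 32.9% ± 1.31, and JUND 12% ± 1.94 and 11.6% ± 0.437 (SD, n = 3 each, exact two-sided permutation p from 0.7 to 0.9). DMSO replicate 3 held the highest JUNB share, 61.8%, and the lowest JUN and JUND shares. The summed TPM of the JUN genes per summed TPM of the FOS genes was 1.31, 1.47 and 1.05 in the DMSO libraries and 1.57, 1.56 and 1.60 in the erianin libraries. The ratio was higher in every erianin library (1.28 ± 0.21 against 1.58 ± 0.0216, SD, n = 3 each, exact two-sided permutation p = 0.1).

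**Figure D4:**
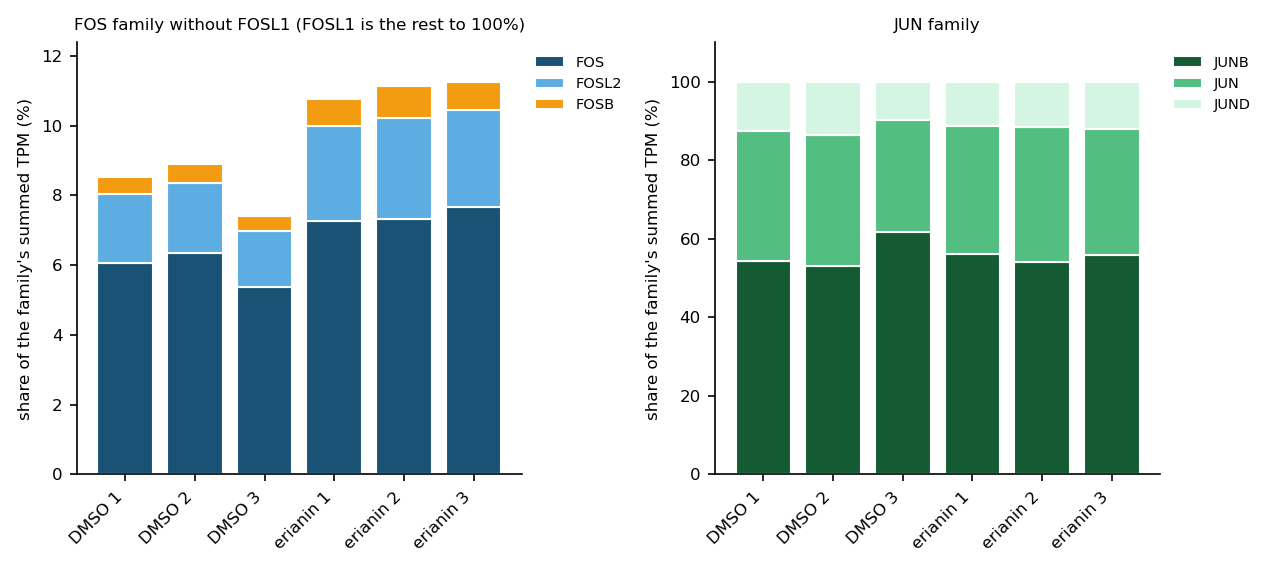
Share of each gene in its family's summed TPM, in percent, for each of the 6 libraries, as stacked bars from 0. The left panel leaves out FOSL1, which makes up the rest to 100%, and its bars are taller in all 3 erianin libraries than in all 3 DMSO libraries; in the right panel the JUNB bar of DMSO replicate 3 is the tallest, at 61.8%.

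The bases before the transcription start of FOSB, FOS and JUND are shown because FOSB was the called gene, FOS is another early response gene of its family, and JUND carries a full CRE. They come from RefSeq promoter windows on GRCh38.p14, 250 bases before to 50 after a start, which matched 7 members (FOS, FOSB, FOSL2, JUN, JUNB, JUND and MAFF, the last with 2 windows), and they end before the first base that the GENCODE annotation gives to the gene. FOSB is chr19:45467746-45467994 on the plus strand, FOS chr14:75278578-75278773 on the plus strand and JUND chr19:18281623-18281872 on the minus strand, each written 5′ to 3′ along its gene. Capitals mark the CRE TGACGTCA or its first letters TGACG, on either strand, motifs chosen after the sequences were seen:
FOSB: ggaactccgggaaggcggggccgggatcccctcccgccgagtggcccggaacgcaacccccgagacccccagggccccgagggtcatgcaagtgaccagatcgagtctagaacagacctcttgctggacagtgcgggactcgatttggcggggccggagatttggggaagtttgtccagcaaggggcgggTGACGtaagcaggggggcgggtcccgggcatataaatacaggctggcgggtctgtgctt
FOS: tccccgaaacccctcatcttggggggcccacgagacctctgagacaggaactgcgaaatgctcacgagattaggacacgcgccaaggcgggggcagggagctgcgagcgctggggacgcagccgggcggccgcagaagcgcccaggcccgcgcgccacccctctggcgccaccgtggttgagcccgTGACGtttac
JUND: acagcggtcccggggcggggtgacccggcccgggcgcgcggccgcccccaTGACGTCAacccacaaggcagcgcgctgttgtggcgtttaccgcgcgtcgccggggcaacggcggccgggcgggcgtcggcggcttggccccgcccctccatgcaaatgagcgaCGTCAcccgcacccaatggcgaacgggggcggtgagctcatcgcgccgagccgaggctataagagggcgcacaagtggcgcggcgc

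The letters TGACG start at -60 from the RefSeq start in FOSB and at -64 in FOS, both reading along the gene. JUND holds the full CRE at -200, of which TGACG is a part, and TGACG on the opposite strand at -86. Over both strands of the 300-base windows, TGACG was present in 7 of 8 member windows and in 24.6% of 35116 windows. The full CRE was found for JUND and MAFF and in 1.85% of all windows, the TRE TGACTCA for FOSL2 and in 4.95%, and the JUN-type element TGACATCA for JUN and in 2.61%. These matches describe letters only.

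Other bZIP genes that can pair with AP-1 proteins or compete for their sites were mixed. Of 18 listed, 16 were tested, 3 were called higher and 1 lower, with a median log2 fold change of 0.09, beside the 5.37% and 3.36% of all tested genes. Without DMSO replicate 3 the counts were 5 and 2, where 11.4% and 6.11% of all genes were called, and without any 1 of the erianin libraries 1 gene was called higher. ATF3, a stress-induced repressor and JUN partner, had 13.3, 12.3 and 9.12 CPM with DMSO and 40.3, 42.4 and 39.1 CPM with erianin, with no overlap (log2 fold change 1.82, SE 0.15, adjusted p = 0.00105). CREB5 rose from 12.6 ± 1.96 to 19.5 ± 0.548 CPM (SD, n = 3 each, log2 fold change 0.63, adjusted p = 0.0212). BACH2, a repressor that pairs with small MAF proteins, was called from few reads, 2, 11 and 14 with DMSO and 45, 43 and 43 with erianin. It passed the low-count filter through the erianin libraries. With at least 10 counts in every library BACH2 was not tested and 2 genes of the list were called higher, against 598 of 12005 genes. With the replicate number as a block the list held 1 gene called higher. JDP2, a repressor that pairs with JUN proteins, fell from 52.1 ± 1.93 to 35.2 ± 1.09 CPM (log2 fold change -0.56, adjusted p = 0.00629), a call that was lost with the GC offset, in both limma fits and without erianin replicate 2 or 3. The most abundant by TPM, NFE2L1, MAFG and NFE2L3, had log2 fold changes of -0.15, 0.13 and -0.25 and passed neither threshold.

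Of 23 kinases and factors upstream of AP-1, all were tested, 0 were called higher and 2 lower by edgeR, against 5.37% and 3.36% of all tested genes, with a median log2 fold change of -0.01. At an unadjusted p under 0.05, 2 were higher and 6 lower, against 15.3% and 15.6% of all tested genes, and DESeq2 and limma called 0 higher. Without DMSO replicate 3, 1 was called higher and 3 lower, against 11.4% and 6.11% of all genes, and with any other library left out 1 was called lower. MAP2K5, the kinase that activates ERK5, fell from 36.1 ± 2.17 to 20.8 ± 0.466 CPM (log2 fold change -0.79, adjusted p = 0.00344). RPS6KA2, a ribosomal S6 kinase of the ERK pathway, fell from 3.03 ± 0.461 to 1.54 ± 0.135 CPM (log2 fold change -0.97, adjusted p = 0.0168). The most abundant were SRF, which drives FOS transcription with ELK factors, at a log2 fold change of -0.03, the MEK gene MAP2K2 at -0.44 (adjusted p = 0.0223, under the fold threshold) and ELK3 at -0.45 (adjusted p = 0.0922). RNA levels of kinases do not measure their activity. Of 9 genes of AP-1 protein turnover and regulation, 8 were tested. By edgeR 0 were called in either direction, against 5.37% of all tested genes higher and 3.36% lower. At an unadjusted p under 0.05, 2 were higher and 1 lower, against 15.3% and 15.6% of all tested genes. By the adjusted p alone 1 passed in each direction, against 14.9% of all tested genes in either direction. DESeq2 called 0 in either direction. limma on log2(TPM + 1) called 1 higher, against 1098 of 11670 genes, as it did with a pseudocount of 0.1, against 1207. Without DMSO replicate 3, edgeR called 1 higher, against 11.4% of all genes. COP1, a ubiquitin ligase for c-JUN, was listed at 0 in every library of the deposited tables, a listing that is not read as absence of expression. GSK3B and ITCH, among the most abundant of them, had log2 fold changes of 0.12 and 0.15.

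Of 24 genes often described as AP-1 targets, 22 were tested, 6 were called higher and 2 lower, against 5.37% and 3.36% of all tested genes, with a median log2 fold change of 0.19. Of the genes called higher, 3 passed the low-count filter only through the erianin libraries, where they were high. With at least 10 counts in every library 3 targets were called higher, against 598 of 12005 genes. The collagenase gene MMP1, whose promoter holds the textbook TRE, had 3.53, 4.10 and 3.72 CPM with DMSO and 17.7, 17.6 and 17.2 CPM with erianin (log2 fold change 2.21, SE 0.11, adjusted p = 0.000212). CXCL8, which encodes the neutrophil attractant interleukin 8, rose from 71.8 ± 2.78 to 204 ± 7.3 CPM (SD, n = 3 each, log2 fold change 1.51, adjusted p = 0.000162). EDN1, the endothelin gene, rose from 0.851 ± 0.1 to 2.07 ± 0.388 CPM (adjusted p = 0.0137).

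The other 3 genes called higher rested on few reads in the DMSO libraries and passed the low-count filter only through the erianin libraries. The test could hardly have called such genes lower. The stromelysin gene MMP3 had 0, 2 and 0 reads with DMSO and 32, 26 and 22 with erianin. MMP10, another stromelysin gene, had 8, 10 and 2 reads and then 64, 82 and 60, and the osteopontin gene SPP1 had 0, 2 and 2 reads and then 16, 24 and 14. A filter of 10 counts in every library leaves these 3 untested. Among genes called lower, HMGA1, a chromatin protein gene, fell from 5461 ± 997 to 3135 ± 68.5 CPM (log2 fold change -0.80, adjusted p = 0.00898). The receptor kinase gene AXL fell from 899 ± 42.4 to 543 ± 18.4 CPM (log2 fold change -0.73, adjusted p = 0.00205). For HMGA1 the DMSO libraries held 4963, 4810 and 6608 CPM, with replicate 3 the highest. Without DMSO replicate 3 the log2 fold change was -0.64 for HMGA1 and -0.77 for AXL. TIMP1, with HMGA1 among the most abundant of the list, had a log2 fold change of 0.16. Without any 1 of the erianin libraries 1 target was called lower. The called targets went in both directions, and as background many of these genes also answer to other factors.

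**Figure D5:**
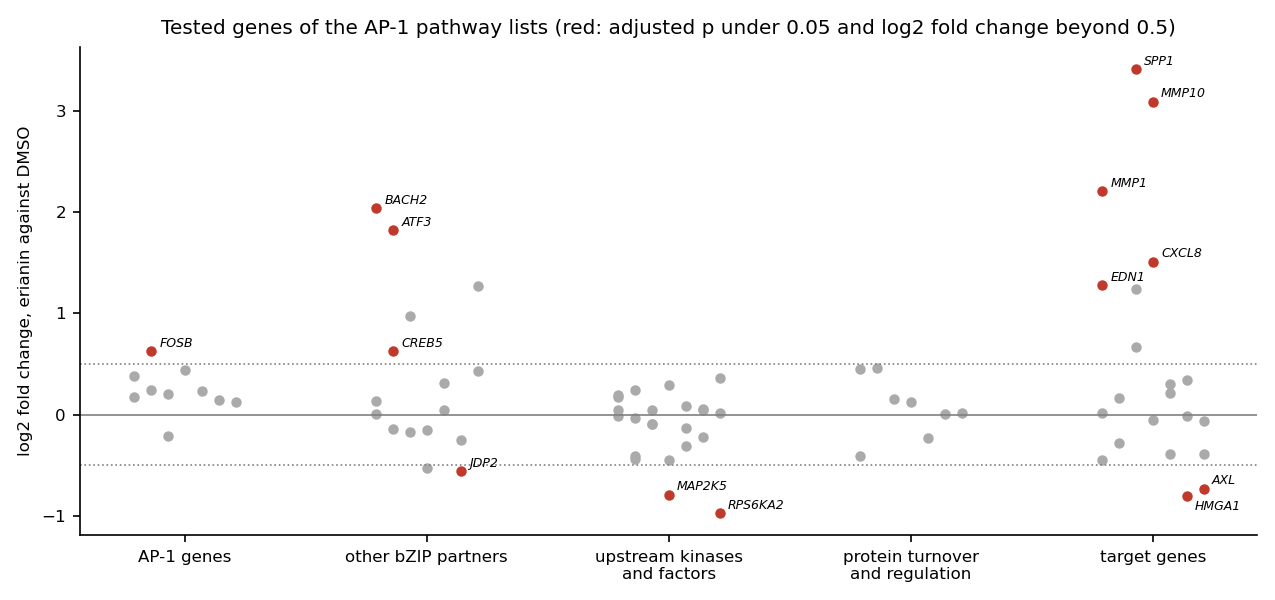
Log2 fold change, erianin against DMSO, of every tested gene in the 5 lists, 1 point per gene, with called genes in red and named. MMP3 is left out because its DMSO libraries held only 2 reads in all, and the value drawn for SPP1 rests on few reads; the AP-1 genes lie between -0.21 and 0.63, and 6 of the target genes were called higher, MMP3 included.

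For the 3 most abundant members, the genes with the most similar profile were ranked by Pearson's r of log2 CPM over the 6 libraries, among 8471 genes with a mean of at least 10 CPM. FOSL1 was most like UACA (r = 0.9996), ERICH1 and ITGB1, JUNB most like PGM2 (r = 0.9993), ALYREF and DNTTIP2, and JUN most like MSL1 (r = 0.9959), MAT1A and FBRS. The points share their libraries, and DMSO replicate 3 deviated from the other DMSO libraries in these genes as in the members, by 1.13 on the log2 CPM scale for UACA. With 6 points and so many candidates, such values describe these libraries only.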

How the data were processed

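RNA from 6 libraries of CAL62 cells, 3 with DMSO and 3 with 50 nM erianin, was sequenced on the BGISEQ-500 platform by the authors. The authors deposited raw counts per gene and TPM values of the same libraries, whose columns sum to between 59.1% and 78.3% of their nominal total. The submitters' processing notes name fastp 0.23.2, STAR 2.7.10, featureCounts 2.0.1, StringTie 2.2.1 and GRCh38 (hg38). Annotation and strand setting are not given in the sources used here. The labels speak of replicate experiments without saying whether cultures were separate, so p-values measure the spread between these samples.

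Of 65807 rows, 26480 carried no identifier (0.00385% to 0.00515% of counts) and were left out. Counts were fitted with edgeR 4.0.16 in R 4.3.3 (TMM factors, filterByExpr, glmQLFit and glmQLFTest, no replicate term). SE came from the quasi-likelihood F statistic. Same-numbered libraries did not deviate together (r = 0.00138, 0.0253 and -0.0329). DMSO replicate 3 weighs heavily in the deviations of the DMSO libraries, so these values could miss a pairing. Coordinates, overlaps and GC content came from GENCODE release 29. GC trends were removed by loess (span 0.5). Alternatives also used DESeq2 1.42.0 and limma 3.58.1 on log2(TPM + 1) or log2(TPM + 0.1) for genes at or above a mean of 1 TPM. The fits were also run on simulated counts. Those had larger planted changes than the AP-1 genes showed, a constant spread and no library that stood apart, so that run does not measure accuracy in these data. Tables and plots were made in Python 3.11.15 (with pandas 2.3.3, matplotlib 3.10.9).

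The genes and lists were chosen with earlier results of these data known. Named were all 10 AP-1 genes, the 3 most abundant and every called gene of each pathway list, and the 3 genes most like each of the 3 most abundant AP-1 genes. Some genes that this rule selects are not reported here. ERCC1, HOOK2 and TMEM184A were named for their overlaps.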

Additional observations from a re-analysis of the deposited data

How the results depend on the processing

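Of the AP-1 genes, 1 was called higher with all libraries, 3 with the GC offset, 3 with the GC offset and the replicate block, 2 with the GC offset and without DMSO replicate 3, 2 by limma on log2(TPM + 1) and on log2(TPM + 0.1), 2 by the adjusted p alone, and 0 to 1 with a library left out. With the replicate block alone it was 1 (FOSB, adjusted p = 0.0356), while calls over all genes went from 688 higher and 431 lower to 384 and 281. Whether the replicate numbers pair the libraries was not settled. Without erianin replicates 1, 2 and 3 in turn, 184, 172 and 183 genes were called higher and 144, 140 and 126 lower, against 1485 and 797 without DMSO replicate 3, where edgeR's biological coefficient of variation was 0.0421 against 0.139. limma on log2(TPM + 1) called 1098 higher and 94 lower, with the median of all genes at 0.18, and with a pseudocount of 0.1 it called 1207 and 110, with the median at 0.20. DESeq2 and RLE factors gave 831 and 688 higher and 525 and 444 lower, the upper-quartile factors 822 and 299, the GC offset 813 and 335.

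Other bZIP genes called higher were 1 with the replicate block, against 384 of 12821 tested genes called higher in that fit. They were 5 with the GC offset and without DMSO replicate 3, against 1217 of 13053 genes, and 1 to 5 with a library left out. Those called lower were 0 with the GC offset, alone or with the block, 0 in both limma fits, and 0 to 2 with a library left out. Upstream genes called lower were 1 in both limma fits, where RPS6KA2, at a mean of 0.536 TPM, was not tested. They were 4 by the adjusted p alone and 1 to 3 with a library left out, and those called higher 0 to 1. Turnover genes called higher were 1 with upper-quartile factors, 1 with the GC offset and without DMSO replicate 3, 1 in both limma fits, 1 by the adjusted p alone and 0 to 1 with a library left out, and those called lower 1 with that GC offset and 1 by the adjusted p alone. Target genes called higher were 3 with at least 10 counts in every library, since 3 were then not tested, and 4 to 7 with a library left out. Those called lower were 1 with the GC offset and without DMSO replicate 3, 4 by the adjusted p alone and 1 to 2 with a library left out. Calls over all genes moved with the setting too, so these counts are not read as results about the lists. The GC offset called 335 genes lower, 291 with the block and 406 without DMSO replicate 3. With a library left out, 172 to 1485 were called higher and 126 to 797 lower. The adjusted p alone passed 14.9% of all tested genes in either direction.

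FOSL1 turned positive, to 0.17 with the GC offset and without DMSO replicate 3 and 0.0014 in both limma fits, JUND ran from -0.004 to 0.23 with a library left out, negative only without DMSO replicate 3, and BATF3 to -0.02 with the GC offset and without DMSO replicate 3. In CPM in place of TPM the share differences were 1.92 points for FOS, 1.61 for FOSB, -5.3 for FOSL1 and 1.78 for FOSL2, with the same sign. With a library left out, JUN ran from -0.209 to 2.26 points, JUNB from -2.69 to 1.66 and JUND from -1.45 to 0.436, and changed sign without DMSO replicate 3 for JUN and JUNB and without DMSO replicate 2 for JUND. The cause was not tested. With 3 libraries a group, intervals such as -0.25 to 0.65 for BATF3 leave changes near the fold threshold not detectable at this depth and spread.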

Other observations

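Among the marker lists, PAX8, a transcription factor of the thyroid lineage, was called lower with erianin, from 645, 642 and 739 CPM with DMSO to 433, 433 and 419 CPM (edgeR log2 fold change -0.66, adjusted p = 0.00403). FOXE1, another thyroid factor, had a log2 fold change of 0.03 (edgeR adjusted p = 0.963) at 1.57 and 1.61 CPM. The epithelial genes KRT8, KRT18, KRT19 and EPCAM had log2 fold changes of 0.01, -0.21, -0.21 and 0.26 (edgeR adjusted p from 0.132 to 0.967), with CDH1 near 0 in all libraries. Of 6 fibroblast genes, 2 were tested. COL1A2 was called higher, from 11.1, 11.1 and 7.16 CPM to 25.1, 26.8 and 22.9 CPM (edgeR log2 fold change 1.35, adjusted p = 0.00532), COL1A1 had a log2 fold change of -0.32, and DCN was listed at 0 in every library.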
